A study of Homo sapiens and Mus musculus with 20 samples.

Results

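The peroxisome proliferator-activated receptor genes PPARA, PPARD and PPARG and 6 genes of the lipid response, ANGPTL4, PLIN2, CPT1A, PDK4, TXNIP and ACADVL, were examined for chromatin accessibility in SW480 cells. All accessible regions that overlapped the GENCODE body of 1 of these 9 genes or the 20 kb on either side of it were taken on GRCh38, without regard to their values. This gave 109 of the 167303 SW480 regions, of which 46 had a peak in all 12 libraries. A region is the union of overlapping peak intervals over the 12 libraries, with a peak in at least 2 of them, and genes carried between 5 regions (PDK4) and 21 (PPARD and CPT1A).

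PPARs are nuclear receptors that bind fatty acids and their derivatives, pair with retinoid X receptors and occupy a direct repeat of the AGGTCA motif, known as the PPAR response element. PPARA drives fatty acid oxidation in the liver, PPARD is broadly expressed and prominent in intestinal epithelium, and PPARG directs fat cell formation and is also abundant in colon epithelium. ANGPTL4, PLIN2, CPT1A, PDK4 and ACADVL are well-known targets of these receptors, whereas TXNIP answers chiefly to glucose. Butyrate is a main fuel of colon epithelial cells and also inhibits histone deacetylases, and propionate is its shorter relative.

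ATAC-seq, in which a transposase cuts and tags open chromatin, was performed on 50000 viable cells per reaction of SW480, an established human colorectal adenocarcinoma line. Cells were treated with the short-chain fatty acid (SCFA) salts sodium propionate (NaPr, 10 mM) or sodium butyrate (NaBu, 1 mM) for 12 to 16 h, or left untreated (0 mM), and the labels give no difference between groups other than treatment. Each compound had its own experiment with its own date, 3 treated and 3 untreated libraries, so a difference between the compounds cannot be told apart from dose and experiment and was not tested. The libraries are experimental replicates of 1 cell line, and p-values measure the spread between them.

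The lists held 108442 to 144398 peak intervals per library. The background pileup recovered from them, which is proportional to sequencing depth, was 0.936 to 2.36 tags in the NaPr experiment and 2.11 to 3.03 in the NaBu experiment, so the NaPr experiment was shallower and more uneven. Each list ended near its 300000th line in order of p, at a −log10 p between 3.37 and 9.38, so a region without a peak had none above its library's own limit. Of 10 colon epithelium marker genes, 8 had a start region with a peak in all 12 libraries, among them EPCAM, CDH1, KRT8 and VIL1, while KRT20 had peaks in 3 libraries and CDX1 had none. Of 9 markers of other cell types, PTPRC, CD3E, CD79A, PECAM1 and DCN had no peak at their starts, VWF had peaks in 6 libraries, and CD14, COL1A1 and COL1A2 had them in all 12. By the test defined in the next paragraph, NaBu raised 2 and lowered 1 of 9 colon markers tested (KRT8 by 2.75 and HNF4A by 1.45 percentile points, and EPCAM fell by 4.72) and raised 2 and lowered 1 of 3 other markers (COL1A1 by 5.41 and COL1A2 by 15.8, and CD14 fell by 2.21). NaPr lowered EPCAM, which fell by 2.79, and none of the other 7 colon markers or of 4 other markers tested was called by limma. Over the start regions of all coding genes, 5.75% were higher and 21.7% lower with NaBu, and 1.08% and 8.34% with NaPr. The part of the marker shifts in the results was not tested.

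Accessibility is given as a percentile rank, the position of a region among all 167303 regions of a library when ordered by the −log10 p of its strongest peak summit, with 0 for no peak. A rank rests on 1 summit, not on the length of a region, and does not move when all peaks of a library gain or lose alike. Between 92641 and 107371 regions per library had a peak, so no rank falls between 0 and that of the weakest peak. A peak lost or gained crosses that gap, so its change is not comparable with a change between peaks. Treated and untreated ranks were compared with limma over all regions that had a peak in at least 2 of the 6 libraries of an experiment, and regions with a Benjamini-Hochberg adjusted p below 0.05 were called. Changes are in percentile points, treated minus untreated.

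At the 9 genes, both compounds left most regions uncalled, and the start regions that were called were all lower. NaPr gave 3 higher and 8 lower regions among 88 tested, or 3.41% and 9.09%, against 5.16% and 4.1% of all regions tested. NaBu gave 13 higher and 13 lower among 83, or 15.7% in each direction, against 17.1% and 14.5% of all regions. Unadjusted p was below 0.05 for 27 of the regions with NaPr and 32 with NaBu. The median change over the 9 genes was −1.74 points with NaPr and −0.84 with NaBu, beside 0.04 and 0.56 over all regions.

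The calls with NaPr depended on which library was left out. When limma was run without any 1 of the 3 untreated libraries or without treated replicate 1 or 2, it called 0 regions at the 9 genes in either direction, with 6 to 10 higher and 14 to 19 lower at an unadjusted p below 0.05. Without treated replicate 3, 6 higher and 7 lower regions were called. With NaBu the same exercise gave 10 to 13 higher and 10 to 13 lower regions. Recovered tags were fitted only at regions with a peak in all 6 libraries of an experiment. On tags scaled by background the split was 3 higher to 2 lower with NaPr and 10 to 17 with NaBu. On tags scaled by their median it was 4 to 20 and 11 to 17. The 3 higher regions of the rank test with NaPr had peaks in 1 group alone, so none of them was in the tag fits. The share of all regions called on tags is not given here.

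**Figure D1:**
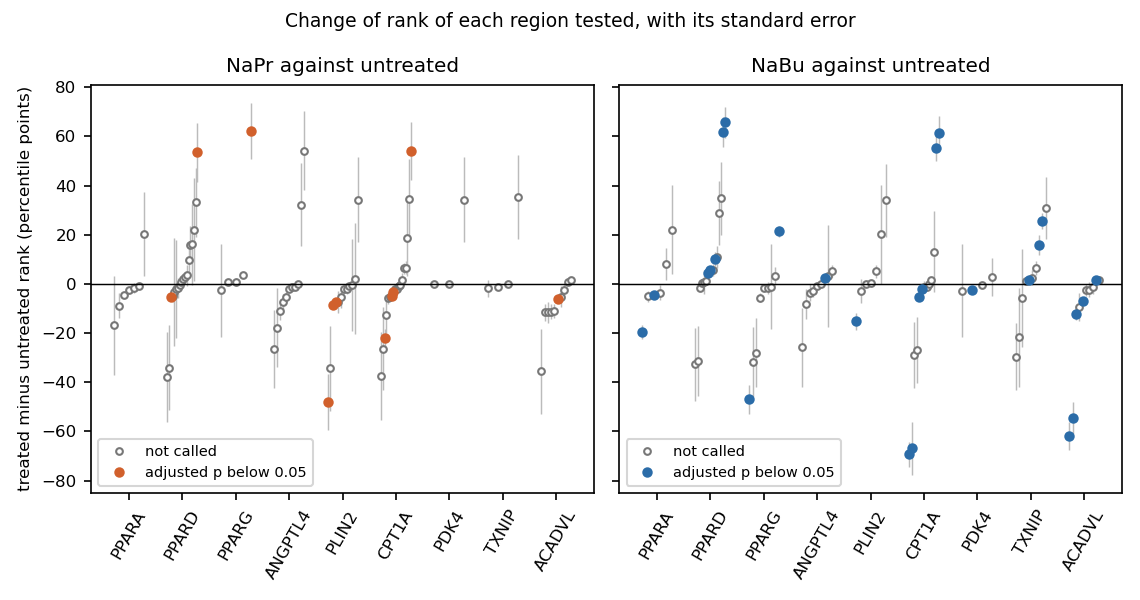
Change of percentile rank (treated minus untreated, in percentile points) of each tested region, grouped by gene, with NaPr on the left and NaBu on the right. Bars are standard errors, filled points are the regions with an adjusted p below 0.05 (3 higher and 8 lower with NaPr, 13 and 13 with NaBu), and open points are not called.

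Regions with peaks in the libraries of 1 group alone entered the test only because of that group, so they had to differ. They were 3 of the 3 higher and 1 of the 8 lower regions with NaPr, and 4 of the 13 higher and 4 of the 13 lower regions with NaBu. A further 8 with NaPr and 5 with NaBu were tested but not called. The share of such regions among all called regions is not given here. The ranks of the called ones are given below as a description, without a p. Called regions also differed in place. Within 1 kb of a coding transcript start lay 10 of the 13 lower regions with NaBu and 3 of the 13 higher ones, where over all regions the shares were 32.2% of lower and 11.5% of higher calls. With NaPr 5 of 8 lower and 1 of 3 higher regions did, against 36.2% and 9.95% over all regions. Uncalled member regions were also often near a start, 23 of 57 with NaBu against 21% of all uncalled regions. CPT1A and ACADVL each held 4 of the 13 lower regions with NaBu. In their windows 12 of 21 and 11 of 11 regions lay within 1 kb of a coding start, called or not. The median GC content was 59.6% in the lower and 52.1% in the higher regions with NaBu, and 52.4% and 49.2% over all regions called.

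A start region was taken for each gene as the highest ranked region within 500 bp of its canonical start. In untreated libraries of the NaPr experiment the starts ranked in the order PDK4 (98.6 ± 0.2, SD, n = 3), ACADVL (95.7 ± 0.25), PPARD (94.2 ± 0.68), TXNIP (93.4 ± 0.98), PLIN2 (87.1 ± 1.3), PPARG (83.7 ± 1.3), CPT1A (83.5 ± 2.6), PPARA (82.5 ± 1.6) and ANGPTL4 (78.6 ± 2.5). The neighbours PPARD and TXNIP, and PPARG, CPT1A and PPARA, lay within each other's spread. In the NaBu experiment TXNIP (96 ± 0.56), PDK4 (95.7 ± 0.36), ACADVL (94.8 ± 0.29) and PPARD (93.7 ± 0.13) led again, and PPARA (71.1 ± 1.9) and ANGPTL4 (63.7 ± 3.8) were last.

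No start of the 9 genes was called higher with either compound. NaPr lowered 2 of the 9 starts, PLIN2 and ACADVL, and NaBu lowered 4, PLIN2, CPT1A, PDK4 and ACADVL. Of these, CPT1A met the filter in the NaBu experiment only through its untreated libraries. Among the start regions of all coding genes, 1.08% were called higher and 8.34% lower with NaPr, and 5.75% and 21.7% with NaBu. The median change of the 9 starts was −1.7 points with NaPr and −3.5 with NaBu, beside −0.74 and −1 over all start regions tested.

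**Figure D2:**
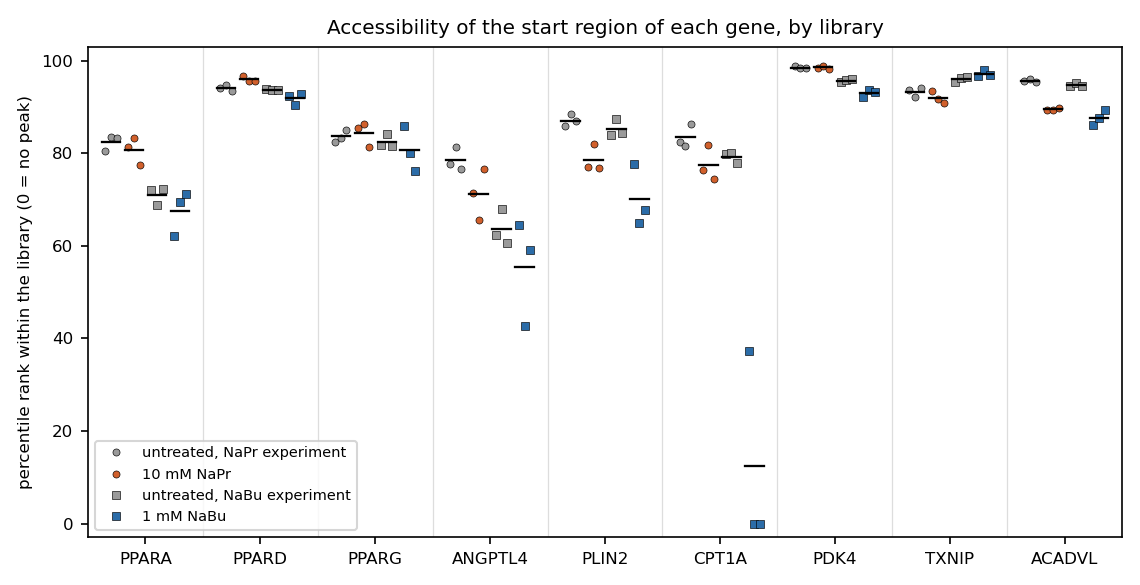
Percentile rank within the library (vertical axis, 0 for no peak) of the start region of each of the 9 genes, 3 points per group with a bar at their mean. PLIN2 and ACADVL sit lower in both treated groups, CPT1A and PDK4 in the NaBu group, and the CPT1A start region has no peak in NaBu replicates 2 and 3.

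The 3 receptor genes kept uncalled starts. The PPARA start (chr22:46149113-46151656, overlapping its first exon and UTR) changed by −1.7 points with NaPr (SE 1.91, limma adjusted p = 0.609) and by −3.5 with NaBu (SE 3.05, adjusted p = 0.397). The PPARG start (chr3:12287383-12289167) changed by 0.73 (SE 1.65, adjusted p = 0.838) and −1.76 (SE 2.52, adjusted p = 0.608). At the PPARD start (chr6:35342129-35343576), untreated ranks of 94.2, 94.8 and 93.5 stood against 96.8, 95.7 and 95.7 with NaPr, a change of 1.85 (SE 0.582, adjusted p = 0.104). The groups did not overlap there, but the change missed the threshold. With NaBu the same start changed by −1.74 (SE 0.658, adjusted p = 0.0935).

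At PPARG a region in an intron, chr3:12345155-12345553, was higher with NaBu. In the NaBu experiment it had peaks in all 6 libraries, at 59.1, 64.2 and 61.4 untreated and 84.6, 84.2 and 80.2 treated. That rise of 21.5 points (SE 2.27, limma adjusted p = 0.00123) had no overlap between the groups. Recovered tags at its summit were 9.57 to 11.8 times the library background untreated and 22.2 to 28.3 times with NaBu. In the NaPr experiment the region had no peak in any untreated library and ranked 54.2, 64 and 68.3 with NaPr, and it was tested there only through its treated libraries.

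The region is 37.3% GC and lies 56085 bp into PPARG from the canonical start. The 201 bases around its summit are shown because this was the highest gain with NaBu at PPARG, read from the plus strand of the GRCh38 reference at chr3:12345246-12345446, with an AP-1 motif (TGANTCA) in capitals:
PPARG intron: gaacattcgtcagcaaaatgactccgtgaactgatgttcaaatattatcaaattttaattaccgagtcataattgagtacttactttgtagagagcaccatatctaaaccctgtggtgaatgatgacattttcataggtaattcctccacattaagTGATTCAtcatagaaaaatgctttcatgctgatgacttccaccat

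The AP-1 motif was sought as TGANTCA with any base at N, and the match printed above is TGATTCA. Matches to this loose form occurred in 19.3% of the member windows and in 19.1% of the windows of all regions. Another intronic region of PPARG, at chr3:12317079-12317246, ranked 49.9, 49.4 and 41.5 in untreated libraries of the NaBu experiment and had no peak in treated libraries or in the NaPr experiment. It was tested only through its untreated libraries.

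At PPARD 5 regions were called higher and 0 lower with NaBu of 15 tested by limma, 8 of them at an unadjusted p below 0.05, where 17.1% and 14.5% of all regions were called. Of the 5, 2 had peaks in treated libraries alone, an intronic region at chr6:35385664-35386330 and one beyond the gene's end at chr6:35445736-35446289. The intronic region had no peak in untreated libraries of the NaBu experiment and ranked 69, 56.1 and 71.9 with NaBu. The other went from no peak to 53.2, 65 and 67.5. In the NaPr experiment neither was called, and the region beyond the gene had peaks in all 6 libraries.

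The other 3 PPARD gains started from peaks in all 6 libraries of the NaBu experiment, at changes of 4.25, 5.7 and 10.2 points. With NaPr, PPARD had 1 region called in each direction of 18 tested, beside 5.16% higher and 4.1% lower of all regions. An intronic region at chr6:35360356-35360730 went from no peak to 64.9, 46.1 and 49.9, and was tested only through its treated libraries. A nearby intronic region at chr6:35362313-35363790 went from 93.1, 94 and 93.4 to 88.4, 88.1 and 88.5 (change −5.15, SE 0.636, limma adjusted p = 0.0174), with no overlap between groups. Its log2 change in recovered tags with NaPr was −0.30 scaled by background (adjusted p = 0.418) and −0.56 scaled by their median (adjusted p = 0.0001847). NaBu changed the rank of this region by 1.29 (adjusted p = 0.0736).

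At PPARA 2 of 6 regions tested were lower with NaBu, beside 14.5% of all regions. None of 7 was called by limma with NaPr, where 2 had an unadjusted p below 0.05, beside 5.16% higher and 4.1% lower of all regions. An intronic region at chr22:46195603-46196700 fell from 82.6, 83.1 and 83 to 59, 69 and 61.8 with NaBu (change −19.6 points, SE 2.85, adjusted p = 0.00309), without overlap. The other covers the start of the neighbouring gene CDPF1 (chr22:46249592-46251172, change −4.67, SE 1.16, adjusted p = 0.0258), and its adjusted p was 0.0656 to 0.0887 without untreated replicate 1 or 3 or treated replicate 2 or 3.

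Among the targets, PLIN2, which coats lipid droplets, was lower at its start with both compounds. The start region (chr9:19126975-19128671) ranked 85.8, 88.4 and 86.9 in untreated libraries and 77, 82.1 and 76.8 with NaPr, a change of −8.43 points (SE 1.79, limma adjusted p = 0.036). In the NaBu experiment it ranked 84.1, 87.4 and 84.3 untreated and 77.7, 64.9 and 67.7 treated, a change of −15.2 (SE 3.45, adjusted p = 0.0189). Treated and untreated ranks did not overlap in either experiment. The NaPr call was lost without any 1 of the 6 libraries, at adjusted p of 0.0513 to 0.102. The NaBu call was lost without any 1 library other than treated replicate 1, at adjusted p of 0.0558 to 0.0744.

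Recovered tags at this start were 43.8 to 51.6 times background untreated and 20.7 to 31.8 times with NaBu, a log2 change of −0.94 (limma adjusted p = 8.397e-05). With NaPr they were 36.5 to 49 times untreated and 28.8 to 33.8 times treated, and the log2 change of −0.49 missed the threshold (adjusted p = 0.183). Scaled by their median, the same tags gave −0.75 (limma adjusted p = 0.0002008), so the 2 scalings differed. The PLIN2 promoter is shown because this start was called in both experiments. The bases upstream of the PLIN2 transcript, at chr9:19127493-19127686 on the plus strand of GRCh38 (the gene runs on the minus strand), hold a GC box (GGGCGG) and an E-box (CACGTG), both in capitals:
PLIN2 promoter: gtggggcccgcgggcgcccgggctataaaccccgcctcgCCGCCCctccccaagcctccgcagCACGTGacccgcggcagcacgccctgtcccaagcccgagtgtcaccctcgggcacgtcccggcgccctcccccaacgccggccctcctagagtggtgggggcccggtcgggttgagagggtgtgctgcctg

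E-boxes were present in 5.5% of the member windows, 4.07% of all windows and 6.63% of the windows of start regions. For GC boxes the shares were 29.4%, 14.1% and 59.7%. With NaPr 2 further regions in the PLIN2 window were called lower, so 3 of 12 tested were lower, beside 4.1% of all regions. A region in coding sequence at chr9:19116486-19116662 had ranks of 47.6, 46.5 and 50.2 untreated and no peak with NaPr, and was tested only through its untreated libraries. A region upstream of the gene at chr9:19155086-19156535 fell from 89, 89.3 and 90.1 to 82.7, 82.7 and 80.9 (change −7.4 points, SE 1.04, limma adjusted p = 0.0206), and NaBu changed it by 0.35 (adjusted p = 0.874).

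**Figure D3:**
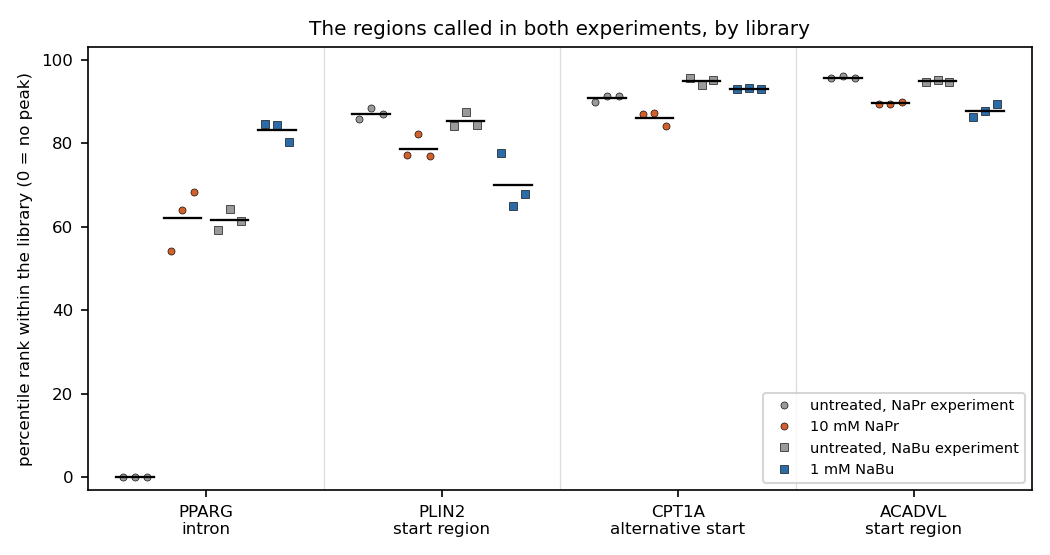
Percentile rank by library (vertical axis, 0 for no peak) of the 4 regions called in both experiments, 3 points per group with a bar at the mean. The PPARG intron region, which with NaPr was tested only through its treated libraries, is higher and the PLIN2 start, the CPT1A region at an alternative start and the ACADVL start are lower in each treated group. The share of all regions called in both experiments is not given here, so the 4 cannot be read as particular to these genes.

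CPT1A encodes the carnitine palmitoyltransferase of the mitochondrial outer membrane, which admits long-chain fatty acids to oxidation. Among the 9 start regions it had the largest change in points, and it was the only one to lose peaks. Its start region (chr11:68840713-68841518, in an intron, 398 bp into the gene) ranked 79.8, 80.1 and 77.9 in untreated libraries of the NaBu experiment. With NaBu it ranked 37.2 in replicate 1 and had no peak in replicates 2 and 3, a change of −66.8 points (SE 10.7, limma adjusted p = 0.0046). That 37.2 lay near the lowest rank a peak could take in its library. This p is no support, because the region met the filter of 2 libraries through its untreated group. With NaPr it changed from 82.4, 81.6 and 86.4 to 76.4, 81.8 and 74.5 (change −5.87, SE 2.38, adjusted p = 0.194), with overlap between the groups. Ranked by fold enrichment in place of p, the NaBu change was −38 points and missed the threshold (adjusted p = 0.0626).

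A neighbouring region, 1498 bp into the gene at chr11:68840080-68840418, went from 63.4, 73.4 and 71.3 to no peak with NaBu. It had no peak in the NaPr experiment and was tested only through its untreated libraries. The local background of its summits, the pileup against which a peak is called, was 13.2 to 13.8 times the library mean, and that of the start region 9.95 to 13.7 times, where the median over all peaks of the experiment was 2. Summits of the start region held 58.3 to 64.7 times the library background untreated and 24 times in NaBu replicate 1. The lists do not show how many tags remained where no peak was called, and the part of the local background in these losses was not tested.

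The canonical start itself lies in the next region, chr11:68841650-68842016, which had peaks in the 6 libraries of the NaPr experiment alone. It ranked 70.4, 76.2 and 71.5 untreated and 80.7, 80.2 and 77.1 with NaPr (change 6.66 points, SE 2.45, limma adjusted p = 0.156). At another alternative start, at position −1787 bp from the canonical one (chr11:68843703-68844392), neither compound gave a call, with changes of −0.94 (adjusted p = 0.337) and 1.57 (adjusted p = 0.201). A peak at −1470 bp (chr11:68843386-68843502) was present with NaBu alone, at 51.7, 56.7 and 57.6. One at −219 bp (chr11:68842135-68842217) was present with NaPr alone, at 55.8, 60.7 and 45.7. In the NaBu experiment the local background was also high at the uncalled start at −1787 bp, at 8.55 to 13.2 times the library mean. At the −1470 bp peak gained with NaBu it was 8.9 to 9.95 times.

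**Figure D4:**
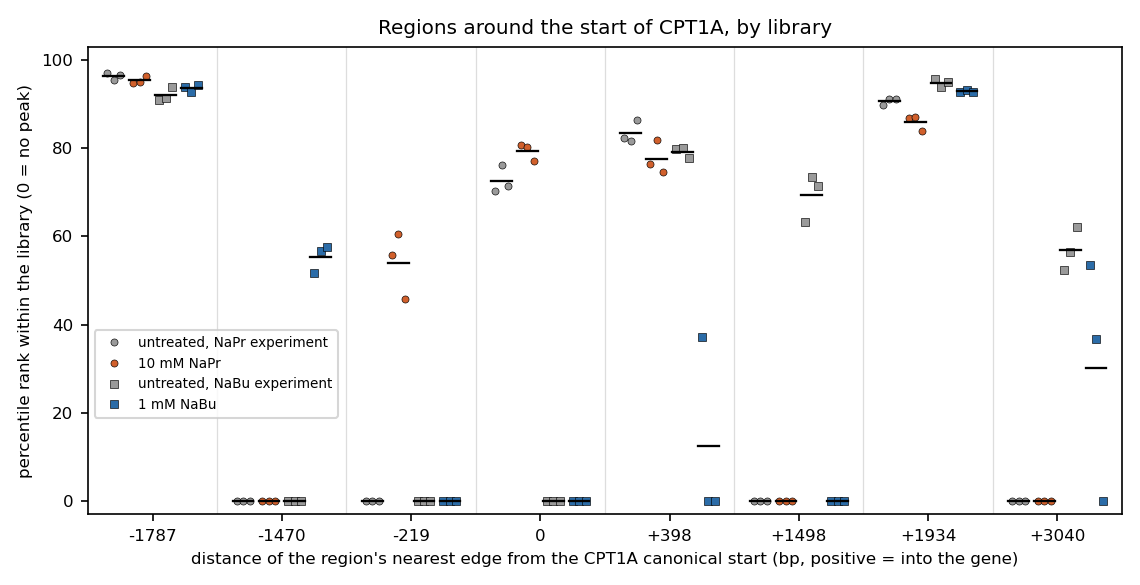
Percentile rank by library (vertical axis, 0 for no peak) of the regions around the CPT1A start, ordered by the distance of their nearest edge from the canonical start in bp. The start region at +398 and the region at +1498 rank between 63.4 and 80.1 in untreated libraries of the NaBu experiment and fall to no peak with NaBu, except for NaBu replicate 1 at +398.

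The CPT1A region called in both experiments spans an alternative start at chr11:68839067-68839982. It fell from 89.9, 91.2 and 91.2 to 87, 87.1 and 84.1 with NaPr (change −4.75 points, SE 1.08, limma adjusted p = 0.0405) and from 95.7, 93.9 and 95.1 to 92.8, 93.2 and 92.9 with NaBu (change −1.91, SE 0.525, adjusted p = 0.0368). The groups did not overlap in either experiment. On recovered tags scaled by background, summits held 120 to 145 times the background untreated and 90.2 to 96.2 times with NaBu. With NaPr they held 68 to 97.5 times untreated and 69.2 to 70.3 times treated, which overlap, and the log2 change of −0.29 missed the threshold (adjusted p = 0.438). Scaled by their median, the tags gave −0.55 (limma adjusted p = 0.0001691). The NaPr call was also lost without any 1 library other than treated replicate 3, at adjusted p of 0.0555 to 0.117.

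Further into the gene the compounds gave other calls. An intronic region at chr11:68775527-68776687 went from no peak to 72.5, 58.6 and 53.2 with NaBu, where it was tested only through its treated libraries. In the NaPr experiment it had peaks in all 6 libraries, at 69.9, 71 and 74.9 untreated and 78.9, 78.7 and 77 treated, a change that missed the threshold (6.27 points, limma adjusted p = 0.164). NaPr lowered a region at chr11:68817972-68818652, over an exon with a UTR, from 75.1, 77.9 and 76.1 to 55.8, 51.7 and 55.5 (change −22, SE 3.87, adjusted p = 0.0272).

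By their summit windows, 4 of the 109 regions (3.67%) held a PPAR response element, against 2.61% of all regions and 1.5% of start regions. The element was sought as AGGTCA written 2 times in the same direction with 1 base between them, on both strands and with at most 2 mismatches, within 100 bp of the strongest summit. Such a match is a description of the letters and not a binding site. The windows lie at the CPT1A alternative start, upstream of PDK4 (with 2 elements), downstream of TXNIP and in a PPARA intron. They are printed from the plus strand of GRCh38 because the receptors bind this kind of element, with the elements in capitals, and in the first 3 windows also an E-box, GC boxes or a CCAAT box.
CPT1A, chr11:68839363-68839551: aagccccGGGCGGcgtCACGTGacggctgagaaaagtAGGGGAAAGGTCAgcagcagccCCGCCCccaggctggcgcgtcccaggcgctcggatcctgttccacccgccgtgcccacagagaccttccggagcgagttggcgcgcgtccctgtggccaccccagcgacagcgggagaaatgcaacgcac
PDK4, chr7:95608762-95608962: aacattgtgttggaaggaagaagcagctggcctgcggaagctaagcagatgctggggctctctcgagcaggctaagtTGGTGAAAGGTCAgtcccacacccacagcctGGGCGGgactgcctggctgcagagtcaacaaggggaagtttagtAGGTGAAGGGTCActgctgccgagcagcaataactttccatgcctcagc
TXNIP, chr1:145990400-145990600: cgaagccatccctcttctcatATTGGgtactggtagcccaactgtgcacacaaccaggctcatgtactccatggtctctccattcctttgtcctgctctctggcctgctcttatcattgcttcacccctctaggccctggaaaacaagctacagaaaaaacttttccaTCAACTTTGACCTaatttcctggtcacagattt
PPARA, chr22:46201544-46201744: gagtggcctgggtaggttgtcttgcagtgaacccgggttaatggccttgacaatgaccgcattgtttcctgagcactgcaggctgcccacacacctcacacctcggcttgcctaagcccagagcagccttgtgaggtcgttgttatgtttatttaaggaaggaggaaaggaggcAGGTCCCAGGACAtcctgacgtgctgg

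The 4 regions with an element did not move in 1 direction. The CPT1A region was lower with both compounds and the TXNIP region was higher with NaBu. The PPARA region (chr22:46201128-46201837) was not called, although its ranks of 95.3, 91.7 and 91.7 untreated and 88.2, 89.3 and 88.2 with NaPr did not overlap (change −4.33 points, SE 1.11, limma adjusted p = 0.0549).

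PDK4 encodes a kinase that switches off pyruvate dehydrogenase and so spares glucose when fat is burned. Its region with 2 elements, at position −11835 bp from the start at chr7:95608351-95609453, was the highest ranked region of the gene in the NaBu experiment, at 99.3, 99.5 and 99.5 untreated and 99.1, 98.9 and 99.1 treated (change −0.38 points, SE 0.197, limma adjusted p = 0.172). With NaPr it changed by −0.15 (adjusted p = 0.935). The PDK4 start (chr7:95595711-95597183) ranked 98.8, 98.4 and 98.5 untreated and 98.6, 98.8 and 98.3 with NaPr, with nearly equal means (adjusted p = 1). NaBu lowered it from 95.3, 95.8 and 96 to 92.3, 93.6 and 93.4 (change −2.65, SE 0.474, adjusted p = 0.00733), without overlap. On recovered tags this was a log2 change of −0.56 (adjusted p = 5.425e-05), while in the limma fit without a trend in the variance the adjusted p of the rank was 0.13.

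TXNIP, an arrestin-fold protein that binds thioredoxin and restrains glucose uptake, had gains with NaBu away from its start. Of 10 regions tested by limma 3 were higher and 0 lower, 3 of them at an unadjusted p below 0.05, beside the 17.1% and 14.5% of all regions. A region 10352 bp downstream of the start, beyond the short gene (chr1:145985158-145986227), rose from 47.6, 42.1 and 48 to 71.3, 72.4 and 71.2 (change 25.7 points, SE 3.21, adjusted p = 0.00188). The region with the element (chr1:145990048-145990734) rose from 45.3, 45.5 and 53.2 to 68.3, 59.8 and 63.4 (change 15.8, SE 4.2, adjusted p = 0.0327). Neither pair of groups overlapped. The second call was lost without untreated replicate 1 or 2 or treated replicate 1 or 3, at adjusted p of 0.0795 to 0.0834, and by fold enrichment the change was 2.14 (adjusted p = 0.651).

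The third gain at TXNIP was 1.4 points at a region over the neighbouring gene POLR3GL whose lowest rank in the NaBu experiment was 97 (chr1:145978763-145980260, limma adjusted p = 0.029). NaPr gave 0 calls among 4 regions tested by limma, and 0 had an unadjusted p below 0.05, beside 5.16% higher and 4.1% lower of all regions. The TXNIP start (chr1:145996480-145997520) changed by −1.3 with NaPr (SE 0.887, adjusted p = 0.367) and by 1.12 with NaBu (SE 0.483, adjusted p = 0.129).

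ACADVL encodes the very long-chain acyl-CoA dehydrogenase, the first enzyme of mitochondrial oxidation of long fatty acids. Its start region (chr17:7219557-7221195) was lower with both compounds and fell from 95.6, 96 and 95.5 to 89.5, 89.3 and 89.8 with NaPr (change −6.17 points, SE 0.541, limma adjusted p = 0.0126). NaBu lowered it from 94.6, 95.1 and 94.6 to 86.2, 87.7 and 89.3 (change −7.05, SE 0.835, adjusted p = 0.00163). No treated rank reached an untreated one in either experiment. On recovered tags scaled by background the log2 changes were −0.61 (adjusted p = 0.0457) with NaPr and −1.03 (adjusted p = 6.845e-08) with NaBu. Ranked by fold enrichment, the changes of −6.07 with NaPr (adjusted p = 0.269) and −5.18 with NaBu (adjusted p = 0.145) missed the threshold.

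This start is shared, because the region also covers a transcript start of the neighbouring gene DLG4, so the loss cannot be given to 1 of the genes. The 48142 bp window around ACADVL holds the starts of 5 other coding genes, and all 11 of its regions lay within 1 kb of a coding start. With NaBu, regions at PHF23 (chr17:7237728-7238246) and at GABARAP (chr17:7241522-7241633) went from ranks of 47.1 to 66.3 to no peak, and were tested only through their untreated libraries. The summits of both had a local background of 10.4 to 12.5 times the library mean, as in the CPT1A promoter. A region at DLG4 (chr17:7214276-7215552) rose by 1.46 points (limma adjusted p = 0.00785), with a log2 change of 0.1 in recovered tags (adjusted p = 0.273). Its local background was 10.6 to 12.6 times the library mean in the NaBu experiment, so a region that rose had such values too. The part of the local background in these changes was not tested.

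ANGPTL4, a secreted inhibitor of lipoprotein lipase, had 1 called region in both experiments together. NaPr gave 0 calls among 11 regions tested by limma, 3 of them at an unadjusted p below 0.05, beside 5.16% higher and 4.1% lower of all regions. Its start (chr19:8363914-8364786) ranked 77.7, 81.4 and 76.7 untreated and 71.4, 65.5 and 76.6 with NaPr (change −7.41 points, SE 3.29, adjusted p = 0.232), and with NaBu it went from 62.3, 68 and 60.7 to 64.4, 42.8 and 59.1 (change −8.24, SE 6.18, adjusted p = 0.326). Only the NaBu groups overlapped. The single call, a gain of 2.44 with NaBu, lay at the start of the neighbouring gene KANK3 (chr19:8342385-8343822, adjusted p = 0.023) and was lost without any 1 library other than untreated replicate 3, at adjusted p of 0.0523 to 0.0807, and by fold enrichment its adjusted p was 0.991.

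Of the 109 regions, 5 had a peak in all 6 libraries of the NaPr experiment and in none of the NaBu experiment, and 2 had the reverse. These were 4.59% and 1.83%, beside 1.99% and 5.47% of all regions. An example is the CPT1A intronic region chr11:68832668-68833522, at 83 to 87.1 in untreated libraries of the NaPr experiment. Untreated libraries of the experiments thus also differed at these genes.

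The wider pathway was read at the starts of 116 other genes in 8 lists of PPAR partners, coregulators and lipid genes, of which 104 had a region. NaPr gave 0 higher and 3 lower of 102 tested by limma and NaBu 9 higher and 22 lower of 101. Over all start regions 1.08% were higher and 8.34% lower with NaPr, and 5.75% and 21.7% with NaBu, so the 22 losses were near the general rate. The median changes were −0.72 and −0.87 points, close to the −0.74 and −1 of all start regions. Both compounds lowered SLC27A2, a fatty acid transporter and activating enzyme (−6.81 points, SE 1.18, adjusted p = 0.0268 with NaPr and −10.5, SE 2.17, adjusted p = 0.0133 with NaBu). Both also lowered ACADS, the short-chain acyl-CoA dehydrogenase (−5.44, SE 0.963, adjusted p = 0.0274 and −8.23, SE 1.67, adjusted p = 0.0123). Each of these starts had a peak in all 12 libraries.

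By list, and beside the 5.75% higher and 21.7% lower of all start regions, NaBu lowered 5 of 14 starts of fatty acid uptake, binding and activation and raised 0, with FABP3 and ACSL4 among the losses. For mitochondrial and peroxisomal oxidation 2 starts were higher and 5 lower of 23, for lipid droplets and lipolysis 0 and 3 of 11, and for lipid synthesis and other reported PPAR targets 2 and 5 of 17. The nuclear receptor partners had 2 higher and 1 lower of 7, the coregulators 1 and 1 of 12, and the arrestin-domain and glucose-sensing genes 2 and 2 of 9. The pyruvate dehydrogenase kinases and phosphatases other than PDK4 had 0 calls of 8. With NaPr the remaining loss was at TXN, which encodes thioredoxin, the partner of TXNIP (−4.94 points, adjusted p = 0.0267).

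**Figure D5:**
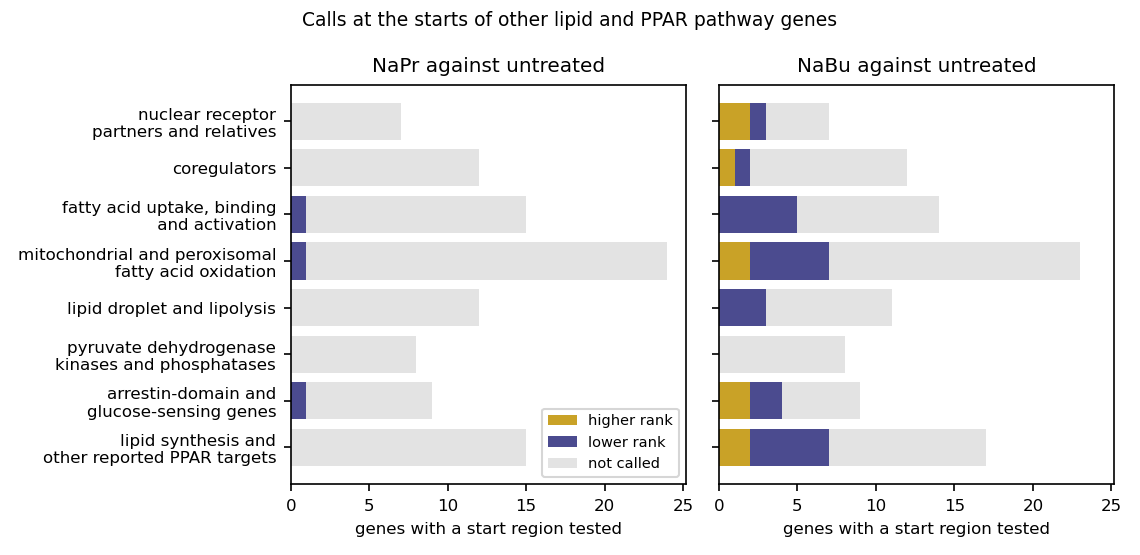
Number of genes (horizontal axis) in each of 8 pathway lists whose start region was called higher, called lower or not called, with NaPr on the left and NaBu on the right. NaPr lowers 3 starts in all and raises 0, and NaBu raises 9 and lowers 22.

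The start regions whose ranks over the 12 libraries were most like those of CPT1A, the member with the largest change at a start, were those of PROSER2, ACE and MAST1 among 14987 genes compared. Their ranks differed from those of CPT1A by a root mean square of 7, 7.17 and 7.3 points.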

How the data were processed

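Peaks were used from 12 SW480 ATAC-seq libraries, grouped by their labels, and the CT26 mouse libraries of the series were not used here. The authors aligned reads to GRCh38.p13 with Bowtie2 and called peaks per library with MACS2 in an ENCODE pipeline. The submitters' processing notes name bcl2fastq 2.17.1, cutadapt 1.9.1, Bowtie2 2.3.1 and MACS2 2.1.0. Per summit, the deposited columns hold a ratio of pileup to local background (fold enrichment). The authors' −log10 values of p and q follow, then the summit's other position offset. The authors tested read counts with DiffBind, and reads were not analysed here. 

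Intervals overlapping by at least 1 bp were merged over the 12 libraries, and regions with a peak in at least 2 were ranked by −log10 p. Ranks were tested with limma 3.58.1 in R 4.3.3 (lmFit, eBayes with trend, two-sided) and Benjamini-Hochberg adjustment over 124067 regions for NaPr and 123730 for NaBu. The fit was tested on simulated shifts of ranks. Tags at a summit and their background were recovered as a Poisson outcome, with 100% of summits solved to within 0.01 of the deposited −log10 p. The highest share of identical intervals in a replicate pair was 0.796%. Genes and transcript starts came from GENCODE 44 and sequences from the GRCh38 reference, with UTR bases left out of what is printed. Named regions were each gene's start region in both experiments and, per gene and experiment, up to 2 higher and 2 lower called regions with the largest change, and other pathway genes were named when their start was called in the same direction in both experiments. FABP3, ACSL4 and TXN, the upstream PLIN2 region, the PDK4 and PPARA regions with elements, the canonical CPT1A start, its start at −1787 bp and its region with peaks in 1 experiment, the markers, and the smaller PPARD and TXNIP gains were added after their values were seen. The genes, lists and motifs were chosen with earlier results of these data known. Alternatives covered the ranking, filters, region building, flanks, tag scaling, variance trend, replicate block and each library left out.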

Additional observations from a re-analysis of the deposited data

How the results depend on the processing

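The counts at the 9 genes (NaPr 3 higher and 8 lower, NaBu 13 and 13) depended on the processing most with NaPr. NaPr gave 1 higher and 5 lower when regions were ranked by fold enrichment, 5 lower when ranked among a library's own peaks, 0 higher and 3 lower with no filter on libraries with a peak, 1 higher when a peak was required in all 6 libraries, 0 higher among the top 50000 intervals, and 2 lower with eBayes without trend. Recovered tags, fitted only at regions with a peak in all 6 libraries, gave 2 lower scaled by background and 20 lower scaled by their median. The median log2 change of all such regions on the background scale was 0.21 with NaPr and −0.02 with NaBu. With 50 kb on both sides NaPr gave 7 higher and 14 lower and NaBu 28 and 21, and with 5 kb NaBu gave 8 and 8. NaBu gave 8 higher by fold enrichment, 8 lower with a peak in all 6 libraries, 7 higher among the top 50000 intervals and 21 lower with regions from summit windows. In an alternative chosen after seeing the data, limited to regions whose nearest coding start is the gene's own, NaBu gave 7 lower. With 1 library left out, NaPr gave 0 to 6 higher and 0 to 7 lower, and NaBu 10 to 13 in each direction. Same-numbered libraries deviated with correlations of 0.005 to 0.048, so the numbers do not pair them, and a fit with the replicate block gave 0 higher and 0 lower with NaPr (7 and 15 at an unadjusted p below 0.05) and 10 and 12 with NaBu. Beyond fewer samples, genes or distance, the cause of these moves was not tested. No named region that was called changed direction where the alternatives were read for it. For those with peaks in 1 group alone the other group stood at 0. Their direction was thus largely fixed in advance and is no support. The alternatives were not read for the NaBu call at the CPT1A alternative start, the upstream PLIN2 region or the smaller PPARD and TXNIP gains. Nor were they read for genes other than the 9. Uncalled starts changed sign at PPARG with NaPr (−1.22 in summit windows, −0.243 to 2.26 without 1 library, the negative value without treated replicate 2) and with NaBu (0.0032 by fold enrichment, 0.836 in summit windows, −4.35 to 0.504 without 1 library, the positive value without treated replicate 3), at PDK4 with NaPr (−0.632 by fold enrichment, log2 −0.17 by tags scaled by their median, −0.121 to 0.123 without 1 library, negative without untreated replicate 2 or 3 or treated replicate 2) and at TXNIP with NaBu (log2 −0.0521 by tags scaled by background and −0.0478 by their median).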
